A study of Caenorhabditis elegans with 11 samples.

Results

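The glutathione S-transferase genes of Caenorhabditis elegans were followed across 11 Affymetrix arrays of whole adult hermaphrodites. Members were the probe sets that GEO's platform annotation pairs with 1 gene named gst or gstk, without gst-4, gst-13, gst-30, gst-32 and gst-38. The rule found 38 probe sets of 37 genes, of 22625 probe sets and 17118 named genes in all. The 5 gst genes left out had been set apart with results of these data known. Worms were 3 days old and sterile, had been kept at 25°C from the first larval stage, and formed 3 groups. Worms in which skn-1 was targeted by RNA interference (RNAi) and which were exposed to oxygen gave 3 arrays, worms exposed to oxygen without it gave 4, and untreated control worms gave 4. The exposure lasted 6 hours in a hyperbaric chamber of 99% oxygen, at a pressure of 40 PSI and at 20°C. For control worms no pressure or change of temperature is given, so these cannot be told apart from oxygen, and the design text does not describe the RNAi. The sample labels name the strain TJ1090 and the design text the strain TJ1060, and no genotype is given for either. Worms with skn-1 RNAi and no oxygen are not analysed here.

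Glutathione S-transferases join the tripeptide glutathione to reactive, electrophilic compounds, among them drugs, plant toxins and aldehydes formed when lipids are oxidised. The conjugates are then carried out of the cell by transporters of the ABC family. Nematodes carry many such genes, often in tandem rows along a chromosome, and the intestine is a main site of their expression. SKN-1, the worm relative of the Nrf proteins, is a transcription factor that raises several of them under oxidative stress, and gst-4 is its usual reporter gene.

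Values are the deposited MAS5 signals, a linear brightness per probe set and array. Probe sets entered the tests if 3 or more of the 11 arrays gave them a signal at or above that array's 40th percentile. A probe set is written as called where its adjusted p in limma (Benjamini-Hochberg over all 15389 tested probe sets) was below 0.05. The median signal of the poly-A spike-in controls was 96.7 to 166.9 on oxygen 1 and 2 and control 1 and 2, called set 1 here, and 2.6 to 15.4 on the other 7 arrays, called set 2. No label states these sets, and all RNAi arrays lay in set 2. Results are therefore given from the fit with group alone, followed by the fit with the set as a block, whose adjusted p is written as set-blocked adjusted p. The arrays' total signals lay between 6863652 and 9138002, and precision is limited by the small number of arrays. Control 4 had the lowest mean correlation with the other arrays of its group, 0.822.

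The RNAi target skn-1 was measured by 3 probe sets. One of them gave 235.2, 371.1 and 434.8 in the RNAi arrays, 487.8, 416.8, 681.2 and 455.0 in the oxygen arrays, and 447.3, 442.2, 796.7 and 454.3 in control. The RNAi and oxygen arrays overlapped, and the log2 difference of −0.58 ± 0.31 (standard error, SE) was not called (limma adjusted p = 0.547, set-blocked adjusted p = 0.318). The other probe sets had log2 differences of −0.35 and 0.65 against oxygen (−0.92 and −0.48 with the set as a block), not called either, and the first of these was called lower than control only in the fit with that block (set-blocked adjusted p = 0.0341). Tissue markers were read as lists. Yolk protein genes, which mark adult hermaphrodites, gave summed signals of 61260 to 74763 in RNAi, 64273 to 86565 in oxygen and 63770 to 112380 in control arrays. Of 13 tested probe sets of intestinal markers, 1 rose (cpr-1) and 3 fell (act-5, pept-1 and nhx-2) under oxygen. The list's summed signal was 20544 to 25036 in oxygen and 17153 to 27756 in control. Bright probe sets, such as asp-1 at 6838 to 13902 in control, weigh most in all these sums, and changes of dimmer markers barely show in them. Body wall muscle markers summed to 9315 to 10778 in RNAi arrays, 2762 to 7155 in oxygen and 2114 to 6856 in control, and 2 of 10 tested probe sets, both of unc-89, were higher with RNAi than in control. Neuronal markers summed to 5057 to 5470 in RNAi, 4041 to 6544 in oxygen and 3034 to 4175 in control arrays. Sperm markers summed to 3555 to 4747 in RNAi, 702.4 to 5389 in oxygen and 395.2 to 4335 in control. Some markers differed by array set within a group. For msp-19 of sperm, control 1 and 2 (set 1) had 403.1 and 291.5, and control 3 and 4 (set 2) had 1267 and 3104. For unc-54 of muscle the same arrays had 366.3, 351.8, 1279 and 1613. All RNAi arrays lay in set 2, so the marker sums do not separate RNAi from the set. Oocyte and germ line markers summed to 16193 to 16868 in RNAi, 12266 to 16659 in oxygen and 15288 to 24800 in control, and 1 of 7 probe sets, of pgl-1, was called lower under oxygen in the set-blocked fit only (adjusted p = 0.0432). That fit also called 3 of 11 neuronal, 1 of 10 muscle, 1 of 4 sperm and 2 of 13 intestinal probe sets higher under oxygen, and 3 intestinal ones lower. With RNAi it called 3 muscle probe sets and 1 of sperm higher than control, and 1 of muscle higher than oxygen. The group fit and the set-blocked fit each called 1 intestinal probe set lower than control with RNAi. Epidermal markers summed to 2744 to 4510 in RNAi, 3097 to 4543 in oxygen and 3935 to 6373 in control, with none called. No marker was at 0, though hlh-1 of muscle, spe-9 of sperm and bli-1 of the epidermis did not pass the filter. The part of these shifts in the results on the members was not tested. In such whole-worm samples fewer cells of a type and less RNA per cell cannot be told apart.

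Of the 38 member probe sets, 28 passed the filter on low signal. Of these, 17 reached the 40th percentile on all 11 arrays and 11 on fewer. The probe set of gst-14 passed through its oxygen arrays alone and that of gst-21 through its control arrays alone, so counts over the tested members describe them and support nothing further. The 10 probe sets that did not pass belonged to gst-2, gst-3, gst-8, gst-11, gst-17, gst-18, gst-19, gst-23 and, with both of its probe sets, gst-40. Their signals ran from 0.7 to 136.4, and each reached the percentile on at most 2 arrays. Among the tested probe sets 7 carry the suffix that the manufacturer gives to probes shared by similar transcripts (gst-9, gst-16, gst-20, gst-27, gst-33, gst-41 and gstk-2). For all close relatives in the family, signal from one transcript can reach the probes of another.

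Under oxygen, 9 members rose and 1 fell against control. Those that rose were gst-5, gst-6, gst-9, gst-10, gst-12, gst-14, gst-16, gst-22 and gst-39, and the one that fell was gst-26, by 1.90 on the log2 scale. The rises were log2 1.46 (gst-22) to 3.38 (gst-12) in the members measured in both groups. All control arrays of gst-9 and gst-14 lay below their 40th percentile, so these rises are bounds, at least 4.40-fold and at least 3.86-fold. Called higher were thus 32.1% of the tested members, against 3.29% of all tested probe sets, and called lower 3.57%, against 0.539%. With the set as a block 13 members were called higher (46.4%, against 7.39% of all probe sets) and 5 lower (17.9%, against 1.87%). With the replicate number as a block 13 were called higher (against 3.67% of all probe sets) and 1 lower (against 0.611%). Within set 2 the counts were 4 (gst-12, gst-14, gst-22 and gst-39, 14.3%, against 2.46%) and 1 (gst-26, against 0.286%). Within set 1 they were 1 (gst-12, against 0.188%) and 0 (against 0.00650%). The median log2 change was 0.84 over the tested members and 0.06 over all tested probe sets. Without control 2 or without oxygen 3, 5 members were called higher.

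**Figure D1:**
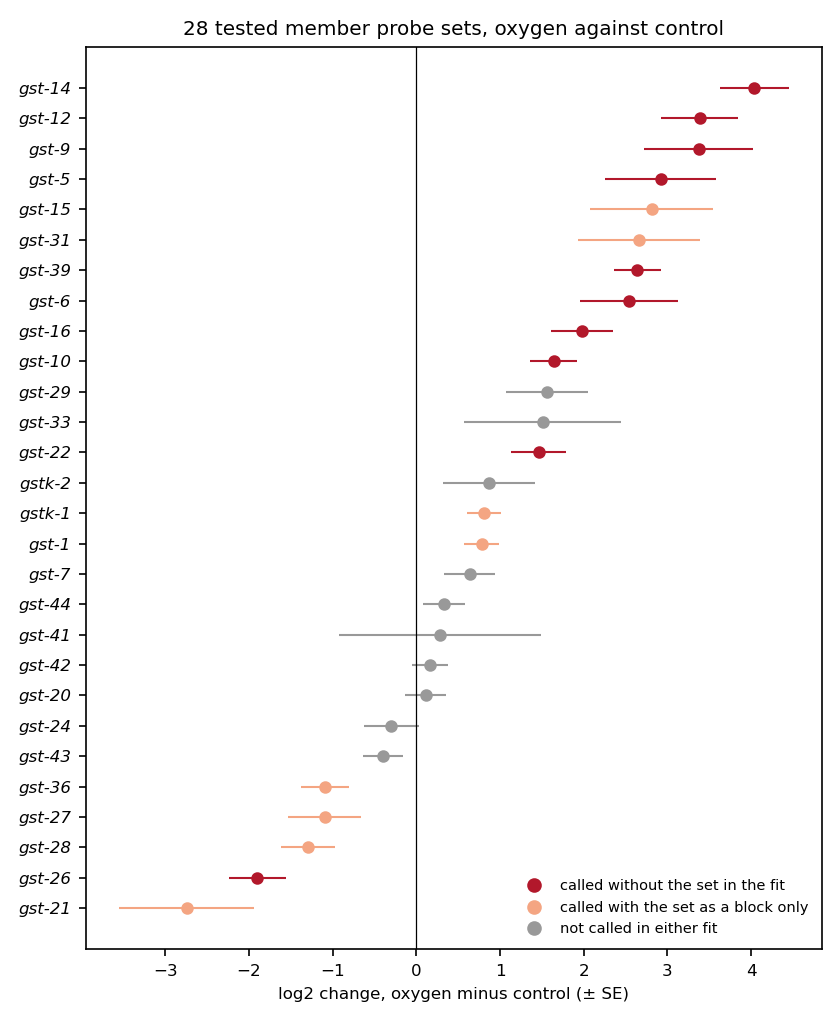
Log2 change of each tested member probe set, oxygen minus control, with its standard error (4 arrays each), ordered by size. The fitted values of gst-14 and gst-9, whose control arrays, and of gst-21, whose oxygen arrays, all lay below the 40th percentile have no exact size. In all, 21 of 28 members lay above 0, against 54.6% of all tested probe sets.

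Some members are known in worms for enzymes that act on hydroxynonenal, an aldehyde from oxidised lipids. Of these, gst-10 rose with no overlap between groups. Its signals were 1986, 2564, 2231 and 1951 in oxygen arrays and 601.9, 545.2, 1074 and 661.3 in control. Every oxygen array lay above every control array, by 3.12-fold between the group means of log2 signal (log2 1.64 ± 0.28 SE, limma adjusted p = 0.00965, set-blocked adjusted p = 0.00521). The change was 1.98 within set 1 and 1.31 within set 2, called in neither (limma adjusted p = 0.0861 and 0.163). The call of the group fit stood in 11 of 11 fits that each left out 1 array. For gst-5 the oxygen arrays gave 1524, 1062, 3578 and 2368 and the control arrays 101.1, 171.7, 1087 and 220.1. Control 3 alone lay inside the oxygen range, just above oxygen 2. The log2 change of gst-5 was 2.92 ± 0.66 (limma adjusted p = 0.0377, set-blocked adjusted p = 0.00482). It was 3.62 without control 3, and was called only without control 3 or oxygen 2 among the 11 leave-one-out fits (adjusted p up to 0.118). The signal of gst-6 was 370.2, 297.0, 179.3 and 210.0 in oxygen arrays, against 52.3, 77.1, 80.5 and 11.1 in control. The groups did not overlap, and the low value of control 4 widened the gap (log2 2.54 ± 0.58, adjusted p = 0.0397; 1.88 without control 4). Among the 11 leave-one-out fits gst-6 was called only without control 3 or control 4 (adjusted p up to 0.0958), and it was not called after quantile normalization (adjusted p = 0.143) or median centring (0.0845). Another gene with this activity, gst-24, was not called. Its signals of 116.3, 178.7, 154.3 and 68.0 in oxygen arrays lay around the 103.9, 148.7, 189.7 and 170.0 of control (log2 −0.30 ± 0.33, adjusted p = 0.825).

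Many tested members lay in 3 tandem rows on chromosome II, in the gene order of the WBcel235 assembly, where family members within 20 kb of each other were taken as a row. In the first, gst-20, gst-24, gst-15, gst-14, gst-12, gst-16, gst-19, gst-17 and gst-18 follow each other with no other protein-coding gene starting between them. The fitted changes of the 4 middle members were log2 1.98 to 4.04, and those of gst-20 and gst-24 were 0.11 and −0.30. Signals of gst-14 were 76.4, 101.9, 133.0 and 87.2 in oxygen arrays and 6.4, 4.1, 9.7 and 4.9 in control. All control arrays lay below their 40th percentile, so its rise was at least 3.86-fold (fitted log2 4.04 ± 0.41, no exact size, limma adjusted p = 0.000712). Its neighbour gst-12 had 453.2, 413.3, 650.1 and 600.8 in oxygen arrays against 28.8, 30.5, 66.0 and 106.0 in control. It rose 10.4-fold (log2 3.38 ± 0.46, adjusted p = 0.00254), with 3.87 within set 1 and 2.90 within set 2. On its other side, gst-16 had 186.3, 219.2, 118.7 and 166.5 in oxygen arrays against 50.3, 21.0, 49.0 and 65.2 in control, a 3.93-fold rise (log2 1.98 ± 0.37, adjusted p = 0.0157). All 3 calls stood in 11 of 11 leave-one-out fits and with the set as a block. The signal of gst-15 was 83.9, 94.0 and 129.6 in oxygen 1 to 3 but 20.2 in oxygen 4, against 20.7, 21.5, 3.6 and 5.3 in control. Because of oxygen 4 its groups overlapped. Its log2 change of 2.81 ± 0.73 was not called (adjusted p = 0.0675), while it was called with the set as a block (0.0152), with the replicate number as a block (0.03) and without oxygen 4 (0.032). At the start of the row, gst-20 (log2 0.11 ± 0.24) and gst-24 were not called, and gst-17, gst-18 and gst-19 at its end did not pass the filter.

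The second row split by position. In chromosome order the tested members were gst-26, gst-27, gst-28, gst-29, gst-39 and gst-31, again with no other protein-coding gene starting between them. Among them, gst-26 to gst-28 had log2 changes below 0 under oxygen (−1.90, −1.09 and −1.30), and gst-29, gst-39 and gst-31 had changes above 0 (1.56, 2.64 and 2.66). Of these, gst-26 fell and gst-39 rose in the group fit. The order within the row was noticed in these values and was not tested. Signals of gst-39 were 1393, 1151, 1688 and 1830 in oxygen arrays, against 188.8, 219.0, 205.7 and 384.6 in control. It rose 6.24-fold with no overlap (log2 2.64 ± 0.28, limma adjusted p = 0.000786), and the change was 2.64 within each set, called in set 2 only. For gst-26 the oxygen arrays gave 144.6, 278.2, 75.3 and 162.5 and the control arrays 612.4, 539.2, 478.3 and 602.7. It fell 3.73-fold, again with no overlap (log2 −1.90 ± 0.34, adjusted p = 0.0131). The change was −1.52 within set 1 and −2.28 within set 2, called in set 2 only. The group-fit calls of gst-39 and gst-26 stood in 11 of 11 leave-one-out fits. The neighbour gst-28 had 80.4, 114.9, 66.8 and 109.4 in oxygen arrays, below each of the 274.5, 178.3, 147.0 and 341.4 of control. It was not called in the group fit (adjusted p = 0.0557) but was with the set as a block (0.0346). Signals of gst-27 were 972.8, 1302, 436.1 and 397.8 in oxygen arrays, against 2170, 2011, 832.2 and 1254 in control. The sets lay apart in both groups, and it was called lower only after blocking on the set (adjusted p = 0.00706, against 0.264 in the group fit). Signals of gst-31 were 118.1, 104.3, 159.7 and 180.9 in oxygen arrays, all above the 5.5, 10.6, 47.9 and 79.9 of control (adjusted p = 0.0812, 0.00783 with the set and 0.0422 with the replicate number as a block). The change of gst-29 was not called in either fit (adjusted p = 0.136, set-blocked adjusted p = 0.0733).

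**Figure D2:**
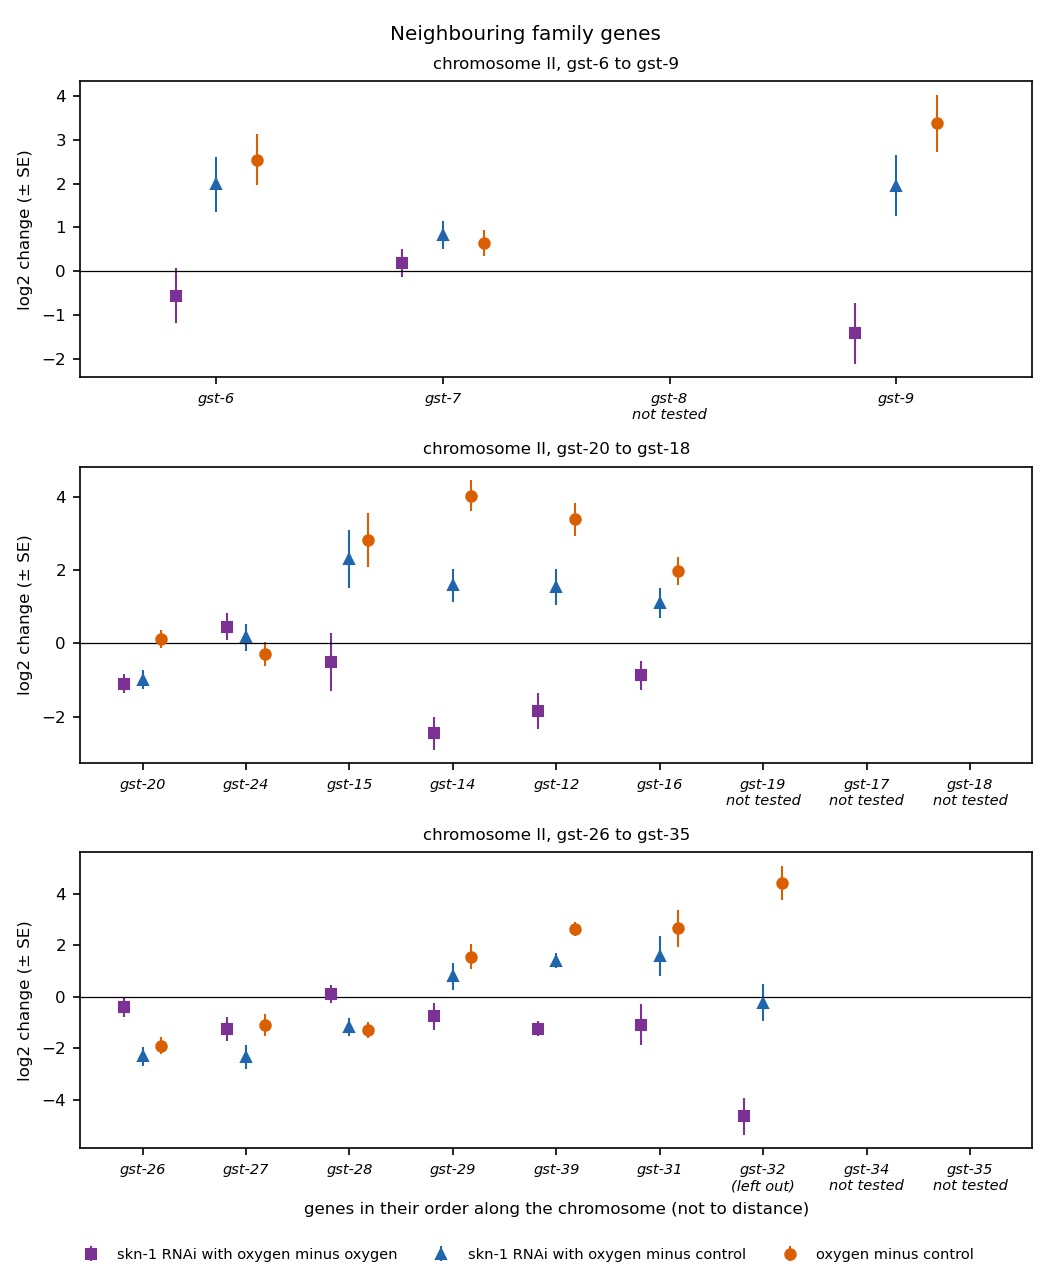
Log2 changes with standard errors of neighbouring family genes in their order along chromosome II, for RNAi with oxygen minus oxygen (squares), RNAi with oxygen minus control (triangles) and oxygen minus control (circles). In the lowest panel gst-26 to gst-28 lie below 0 and gst-29 to gst-31 above 0 for oxygen minus control. The gene gst-32, left out by the rule, is drawn only to complete its row.

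The third row holds gst-6, gst-7, gst-8 and gst-9, with 2 other protein-coding genes starting between gst-8 and gst-9. The gene gst-9 had 60.1, 108.0, 120.1 and 195.8 in oxygen arrays against 11.7, 7.0, 28.2 and 5.7 in control, where all arrays lay below their 40th percentile. It rose at least 4.40-fold (fitted log2 3.38 ± 0.65, no exact size, limma adjusted p = 0.0176). That call ended without control 2 (0.0573), oxygen 3 (0.0573) or oxygen 4 (0.0574). Between gst-6 and gst-9, which rose, gst-7 had 1428, 1796, 2427 and 2351 in oxygen arrays and 991.0, 851.2, 1640 and 1800 in control. Arrays of set 2 were the higher ones in both groups, the groups overlapped, and the change was not called (log2 0.64 ± 0.30, adjusted p = 0.384, set-blocked adjusted p = 0.0518).

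Outside these rows, gst-22 rose, with 228.6, 140.5, 341.3 and 399.6 in oxygen arrays against 83.2, 96.7, 93.8 and 100.1 in control. The groups did not overlap (log2 1.46 ± 0.33, limma adjusted p = 0.0352, set-blocked adjusted p = 0.0091). The rise was 1.00 within set 1 and 1.93 within set 2, called in set 2 only. Among the leave-one-out fits it was called only without oxygen 2 or RNAi array 2 (adjusted p up to 0.112). After quantile normalization it was not called (0.055). The pi-class gst-1 had 3556, 3639, 3984 and 4417 in oxygen arrays, all above the 2260, 1821, 2216 and 2851 of control. Its 1.72-fold difference was not called in the group fit (adjusted p = 0.0723) but was with the set as a block (0.0198). The kappa-class gstk-1, a class found in animals in mitochondria and peroxisomes, gave 1223, 1297, 968.5 and 901.9 in oxygen arrays, above the 687.5, 673.7, 637.9 and 500.6 of control. Its 1.75-fold difference had an adjusted p of 0.0621, and of 0.00967 with the set and 0.0387 with the replicate number as a block. The other kappa-class gene, gstk-2, was called with the replicate number as a block alone (log2 0.87, adjusted p = 0.0446, and 0.578 in the group fit). Lower values were measured for gst-36, at 324.5, 467.6, 251.8 and 336.6 in oxygen arrays against 724.2, 748.2, 644.9 and 761.1 in control. These groups did not overlap (log2 −1.09 ± 0.29, adjusted p = 0.0704, set-blocked adjusted p = 0.0355). The dim gst-21 had 12.1, 10.9, 1.5 and 3.1 in oxygen arrays, all below their 40th percentile, against 43.9, 36.3, 93.0 and 8.3 in control. Control 4 lay inside the oxygen range, and control was at least 1.05-fold higher by the bound (adjusted p = 0.109, set-blocked adjusted p = 0.0371).

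In the fits that each left out 1 array, gst-1, gst-21 and gst-31 were also called without control 4 (adjusted p = 0.037, 0.0331 and 0.0217), gst-29 likewise without control 4, gst-28 without control 3 (0.0378) and gst-36 without RNAi array 3 (0.0418). Without reference to a call, oxygen and control arrays did not overlap in 11 members with oxygen higher (39.3%, against 6.60% of all tested probe sets) and in 3 with oxygen lower (10.7%, against 3.76%). The zeta-class gst-42 encodes maleylacetoacetate isomerase, an enzyme of tyrosine breakdown. Its signals were 692.8, 671.3, 446.4 and 634.3 in oxygen arrays and 596.2, 496.3, 464.7 and 615.5 in control, and they overlapped (log2 0.16 ± 0.22, limma adjusted p = 0.875). For gst-43 the oxygen arrays gave 309.7, 403.3, 246.3 and 288.4 and the control arrays 552.2, 417.2, 340.2 and 339.8 and these overlapped too (log2 −0.40 ± 0.24, adjusted p = 0.538). The remaining tested members, gst-33, gst-41 and gst-44, had log2 changes of 1.51, 0.28 and 0.33, none of them called (adjusted p = 0.567, 0.975 and 0.665).

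**Figure D3:**
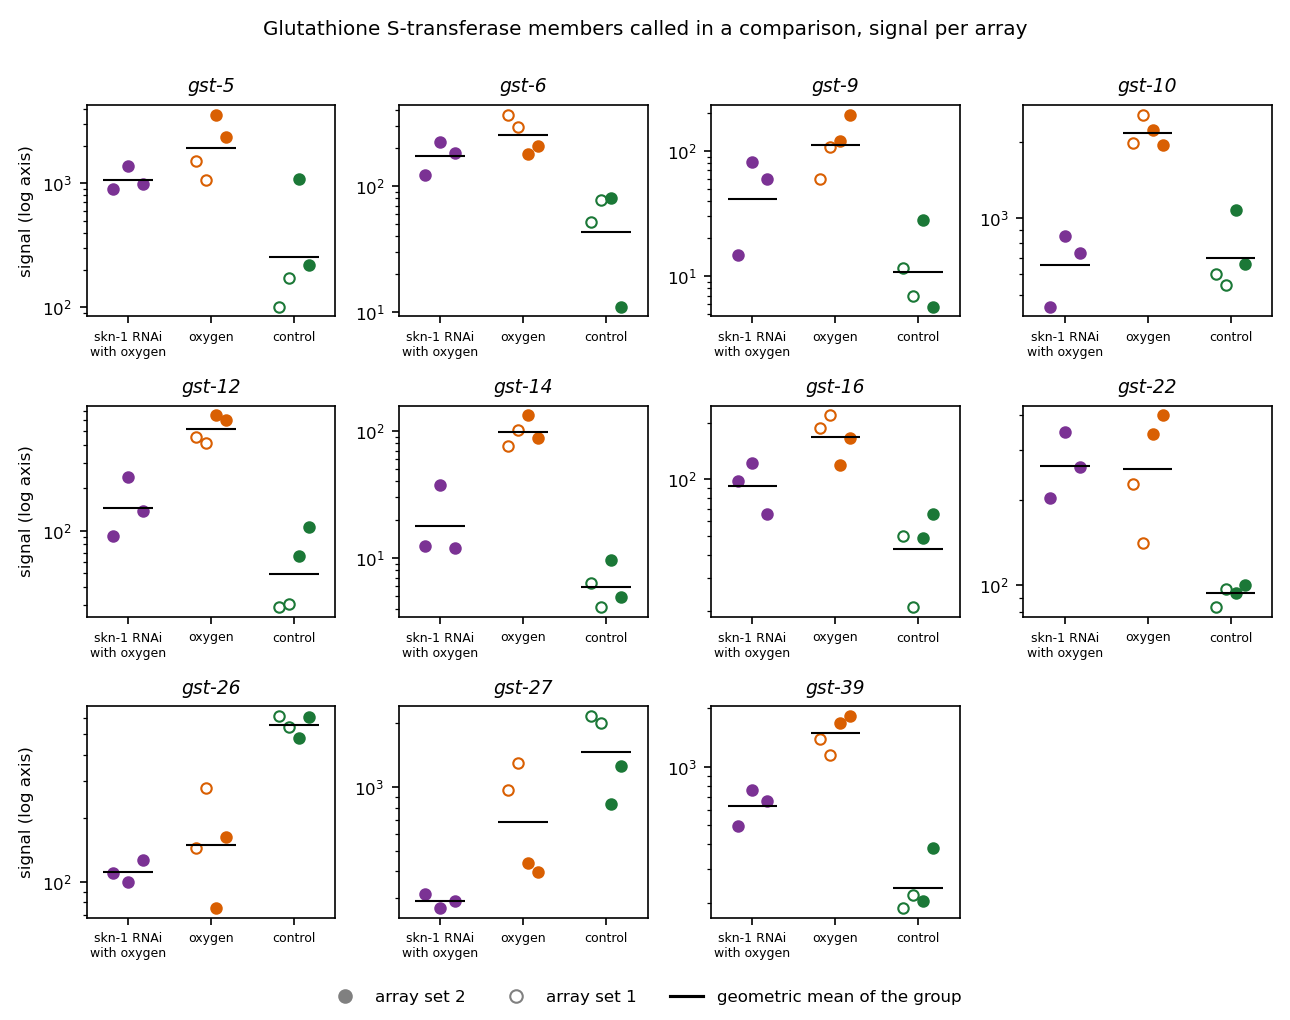
Signal per array on a log axis for the 11 members called in a comparison by the fit with group alone, for skn-1 RNAi with oxygen (3 arrays), oxygen (4) and control (4). Filled points are arrays of set 2, open points arrays of set 1, and bars are geometric means; oxygen arrays of gst-10, gst-12, gst-14 and gst-39 lie above all RNAi and control arrays.

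With skn-1 RNAi under oxygen, the question was which of these levels depend on skn-1. In the group fit of limma 0 members were called against oxygen in either direction (28 of all tested probe sets, 0.182%, were called lower and 7, 0.0455%, higher). At an unadjusted p under 0.05, 8 members were lower and 1 higher, against 3.73% and 6.04% of all tested probe sets. With the set as a block 4 members were lower (14.3%, against 0.572% of all probe sets) and 0 higher, and these 4, gst-10, gst-12, gst-14 and gst-39, had all risen under oxygen. Neither set 2 alone nor the replicate block gave a call in either direction (background 0.0650% lower and 0.0520% higher within set 2, 0.156% lower and 0.123% higher with the replicate block). The comparisons share the oxygen arrays, so a low value here and a high value there are not independent. RNAi and oxygen arrays did not overlap in 10 members with RNAi lower (35.7%, against 5.21% of all tested probe sets) and in 1, gst-21, with RNAi higher (3.57%, against 12.0%). The median log2 change was −0.54 over the tested members and 0.22 over all tested probe sets, or −0.53 and 0.02 with the set as a block.

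The RNAi arrays of gst-10 gave 447.9, 852.9 and 728.2, against the 1951 to 2564 of the oxygen arrays. All lay below the oxygen range, 2 of them within the control range and RNAi array 1 below it (log2 −1.73 ± 0.30 against oxygen, limma adjusted p = 0.069; −1.84 ± 0.31, set-blocked adjusted p = 0.0388; −1.68 within set 2). It was called without control 3 (0.0405), and both quantile normalization (0.0299) and median centring (0.0264) gave it. For gst-14 the RNAi signals were 12.4, 37.7 and 12.1, all below their 40th percentile and at least 2.60-fold below the oxygen arrays. RNAi array 2 was the highest of the 3, and without it the adjusted p was 0.0234, against 0.0779 with it (fitted log2 −2.45 ± 0.44, no exact size, set-blocked adjusted p = 0.0479). For gst-12 the RNAi arrays had 90.9, 239.2 and 136.9, below all oxygen arrays and, in RNAi array 1, inside the control range (log2 −1.85 ± 0.49, adjusted p = 0.27; −2.36 ± 0.39, set-blocked adjusted p = 0.0304). For gst-39 they had 498.6, 761.3 and 668.4, between the oxygen and the control arrays with no overlap on either side (log2 −1.24 ± 0.30, adjusted p = 0.216; −1.47 ± 0.27, set-blocked adjusted p = 0.0479). In the 7 arrays of set 2 alone none of the 4 differences was called (adjusted p = 0.195 to 0.228), with fitted log2 changes of −2.60 to −1.47.

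Other members that had risen under oxygen were not called against oxygen in either fit. The RNAi arrays of gst-22 gave 202.4, 348.2 and 261.1 and lay within the oxygen range (log2 0.04 ± 0.35, limma adjusted p = 0.974). Those of gst-6 gave 123.1, 225.9 and 184.5 and those of gst-5 893.7, 1383 and 981.7, both overlapping the oxygen arrays (log2 −0.56 ± 0.63 and −0.85 ± 0.72). With the set as a block these changes were −0.09 ± 0.62 for gst-6 and −1.62 ± 0.55 for gst-5. Both oxygen arrays of set 2 lay above all RNAi arrays of gst-5. The RNAi arrays of gst-16 gave 97.9, 121.6 and 65.9 and those of gst-9 14.7, 82.0 and 59.5, also overlapping. Their log2 changes were −0.87 ± 0.40 and −1.42 ± 0.70, or −0.94 ± 0.44 and −1.77 ± 0.75 with the set as a block. These standard errors leave room for sizeable differences, so missing the threshold does not show that the levels were alike. Of members not called under oxygen in the group fit, gstk-1 had 655.8, 737.7 and 582.8 with RNAi, below all oxygen arrays and overlapping control (adjusted p = 0.356). The RNAi arrays of gst-20 gave 176.4, 267.7 and 319.5, below the 493.7, 707.4, 536.9 and 421.7 of the oxygen arrays and below the 460.1 to 539.6 of control. Its differences were not called (log2 −1.10 ± 0.26, adjusted p = 0.191, against oxygen and −0.99 ± 0.26, 0.0706, against control).

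**Figure D4:**
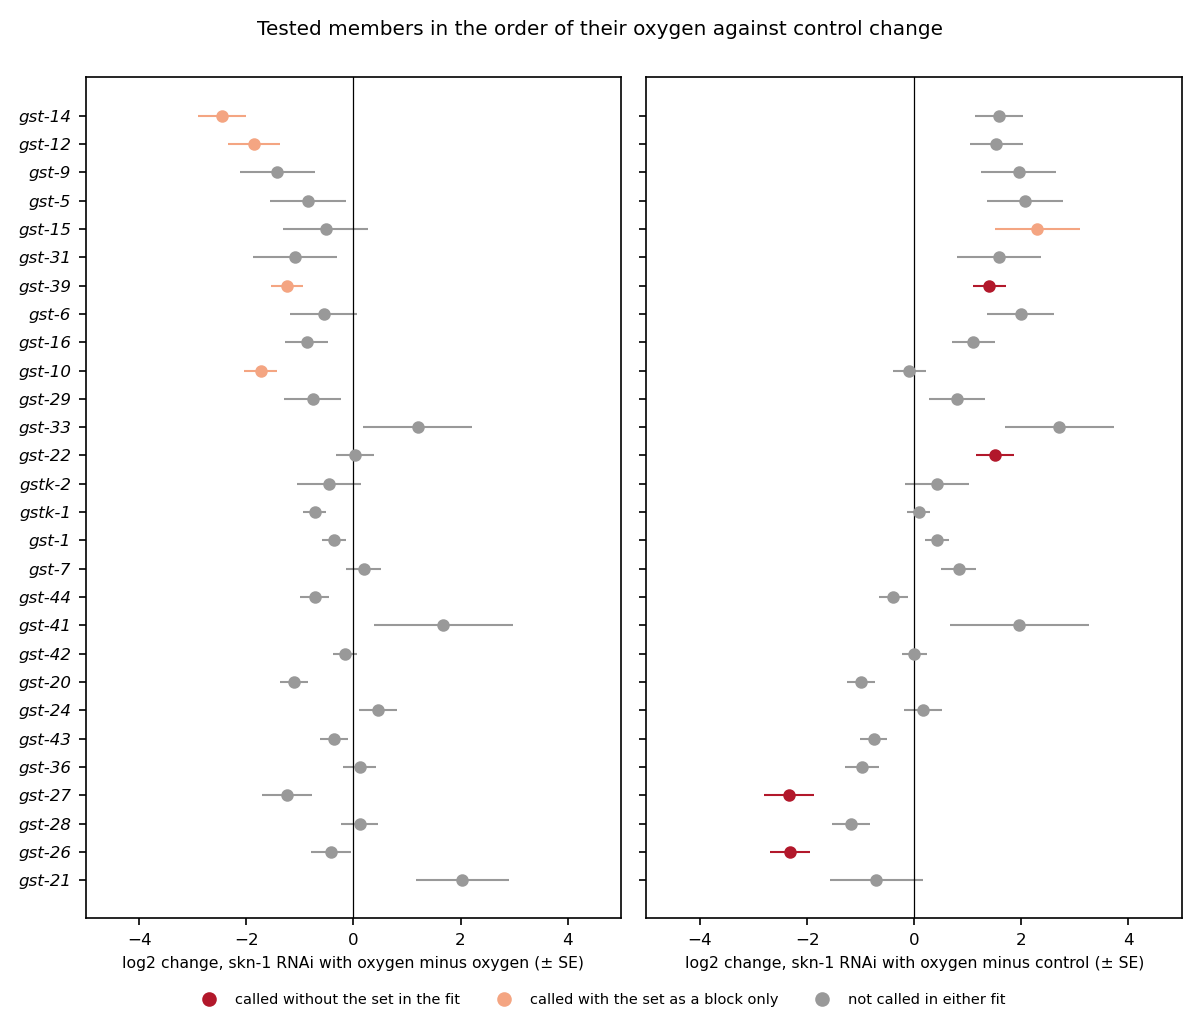
Log2 changes with standard errors of the tested members for RNAi with oxygen minus oxygen (left) and minus control (right), with genes in the order of their oxygen minus control change. On the left 8 of 28 members lie above 0, against 66.4% of all tested probe sets, and on the right 19 of 28, against 69.4%.

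Against control, worms with skn-1 RNAi and oxygen had 2 members higher (gst-22 and gst-39) and 2 lower (gst-26 and gst-27). This was 7.14% of the tested members in each direction, against 2.49% of all tested probe sets called higher and 0.851% called lower. The median log2 change was 0.61 over the tested members and 0.36 over all tested probe sets. The RNAi arrays of gst-26 gave 109.7, 99.5 and 127.4, all below the control minimum of 478.3 (log2 −2.32 ± 0.37, limma adjusted p = 0.0111, set-blocked adjusted p = 0.016). The call ended without RNAi array 2 (0.0645). Those of gst-27 gave 310.8, 268.6 and 290.6, below the control minimum of 832.2 and below the oxygen minimum of 397.8. With the set as a block its log2 change against control was −1.72 ± 0.22 (set-blocked adjusted p = 0.00453). In the group fit it was −2.34 ± 0.47 (limma adjusted p = 0.028). That call ended without control 1, control 2 or any single RNAi array (adjusted p = 0.0768 to 0.116). Both decreases were also called within set 2, where 0.377% of all probe sets were lower, and 0 members were called higher there (against 1.48%). For gst-39 the log2 change against control was 1.40 ± 0.30 (adjusted p = 0.0357, set-blocked adjusted p = 0.0425), but it was called only without control 4, oxygen 2, oxygen 3 or oxygen 4 among the leave-one-out fits. For gst-22 it was 1.50 ± 0.35 (adjusted p = 0.0491), with 0.0623 with the set as a block, and it was called only without oxygen 2 or oxygen 4. After quantile normalization neither gst-22 (adjusted p = 0.114) nor gst-39 (0.0739) was called, nor after median centring (0.0913 and 0.0958). Of the other members, gst-5 without control 3 and gst-12 without control 4 were called higher only in those fits. With the set as a block 2 members were again called in each direction (against 2.97% of all probe sets higher and 1.57% lower), and gst-15 was called higher in place of gst-22, its RNAi arrays giving 61.2, 62.9 and 27.3 (log2 3.06 ± 0.68, adjusted p = 0.0388). RNAi and control arrays did not overlap in 7 members with RNAi higher (25.0%, against 16.9% of all tested probe sets) and in 6 with RNAi lower (21.4%, against 6.69%). With the replicate block, which is no pairing for RNAi arrays, 5 members were called higher (against 8.86%) and 2 lower (against 1.98%).

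The remaining described members were not called with RNAi in the group fit or the set-blocked fit. For gst-1 the RNAi arrays gave 2453, 3346 and 3333, all below oxygen and overlapping control. For gst-28 they gave 73.1, 105.8 and 122.4 and for gst-36 250.3, 331.6 and 585.3. The values of gst-28 and gst-36 overlapped those of oxygen and lay below those of control, without being called (limma adjusted p = 0.101 and 0.124 against control). For gst-31 the RNAi arrays gave 55.5, 65.7 and 74.5, below all oxygen arrays and inside the control range. For gst-21 they gave 21.8, 17.5 and 22.2, all below their 40th percentile, as the oxygen arrays were, so no fold is given between them. For gst-7 the RNAi signals were 1781, 2558 and 2434, for gst-42 456.7, 564.6 and 611.3, and for gst-43 246.9, 207.6 and 267.0. Only those of gst-43 lay apart from control, all below it. For gst-7, gst-42 and gst-43 the log2 changes against oxygen were 0.19, −0.16 and −0.36 and those against control 0.83, 0.0022 and −0.76. None of them was called in these fits, while gst-7 was called higher than control with the replicate block (limma adjusted p = 0.0476).

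The 5 gst genes left out by the rule had log2 changes of 1.94 to 4.47 under oxygen, and 3 of them, gst-13, gst-32 and gst-38, were lower with RNAi than in oxygen in the group fit of limma. They were set apart with such results known, so the contrast with the members is a description. Of 16 tested probe sets for glutathione synthesis, breakdown and recycling, 3 rose under oxygen, against control, and 1 fell. Of all tested probe sets 3.29% were called higher and 0.539% lower. Both probe sets of gcs-1, which sets the rate of glutathione synthesis, rose (log2 1.65 ± 0.33 and 1.67 ± 0.25, adjusted p = 0.0211 and 0.00487). The gamma-glutamyltransferase-like T03D8.6 had 728.3, 564.1, 931.5 and 823.1 in oxygen arrays against 117.3, 170.0, 170.8 and 118.0 in control and rose 5.29-fold (adjusted p = 0.000786). The cystathionine gamma-lyase gene cth-1, which supplies cysteine, fell to 111 ± 18.5 in oxygen, against 310 ± 105 in control (SD, n = 4 arrays each, limma adjusted p = 0.0162). In the 2 comparisons with RNAi 0 of these 16 were called in either limma fit. At an unadjusted p under 0.05, 4 were lower than oxygen, against 3.73% of all tested probe sets. Of 11 tested probe sets of the mrp transporters, which export glutathione conjugates, mrp-2 alone was called under oxygen in the group fit, as higher (log2 2.14 ± 0.35, adjusted p = 0.00824). The set-blocked fit called 2 of these probe sets higher under oxygen and 1 lower. Both mrp-2 and 1 of 2 mrp-5 probe sets were higher than control with RNAi and oxygen (adjusted p = 0.0338 and 0.0391). In the set-blocked fit the mrp-5 call stood (0.0161) and that of mrp-2 did not (0.0504).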

How the data were processed

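Per the labels' protocols, total RNA of whole worms was labelled with biotin and hybridised to 1 array per sample. The values, as deposited, are linear signal intensities. The submitters' processing notes name MAS5 and GCOS 1.4, and the scaling target and background settings are not given in the sources used here. The mean without the lowest and highest 2% of values was 250 on 7 arrays (set 2) and 207 to 216 on 4 (set 1).

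The 77 manufacturer's controls were left out. Of the others, 20766 had 1 gene in GEO's platform annotation, 887 more than 1 and 895 no gene. All 37 member genes were found in the RefSeq gene table (WBcel235), which changed 0 symbols and was used for names and gene order. The 1 signal of 0 was set to 0.1. Log2 signals were fitted with limma 3.58.1 (R 4.3.3; lmFit and eBayes, two-sided) across the 11 arrays, by group. This fit was run on simulated arrays with known changes, independent noise and no array sets. That check of the code does not cover the effect of the sets in these data. A fold is a lower bound where all arrays of 1 group lay below their 40th percentile, which stands in for a detection limit.

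Same-numbered oxygen and control arrays deviated together (correlations of deviations from group means 0.449 to 0.565), but not after the set was fitted (−0.257 to 0.223). The replicate number thus showed no pairing beyond the sets. Calls with the replicate block are printed as another setting, also for the comparisons with RNAi. RNAi arrays showed no such pairing (−0.128 to −0.00446).

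Members and lists were chosen with earlier results of these data known. Values per array are given for members called in either fit and for the 4 others with the highest mean percentile of signal. They are also given for gst-24, chosen for its known activity after its values were seen. Protein identity and promoter motifs, planned as descriptions, were not analysed here. Nothing states that samples came from separate cultures, so p-values reflect only how far these samples spread, which may be technical.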

Additional observations from a re-analysis of the deposited data

How the results depend on the processing

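For oxygen against control the 9 members called higher numbered 4 within set 2 and 1 within set 1, and 5 to 10 when 1 array was left out. They numbered 6 with only the 2 groups compared and 6 without a filter. In these 2 settings gst-5, gst-6 and gst-22 were not called (limma adjusted p = 0.068 to 0.106). The count was 8 after median centring, 11 with log2(signal + 16), 12 with the stricter filter and 13 with the set as a block. The 1 called lower numbered 5 with the set as a block, 2 with log2(signal + 16), 3 with the stricter filter at the 60th percentile and 0 within set 1, and 1 to 2 when 1 array was left out. For RNAi with oxygen against oxygen, 0 were called higher in all settings run, and called lower were 4 with the set as a block, 2 each after quantile normalization, after median centring and with log2(signal + 16), 1 with the stricter filter, and 0 to 1 when 1 array was left out. For RNAi with oxygen against control, the 2 called higher numbered 0 within set 2, without a filter, and under median centring or quantile normalization, 1 with only the 2 groups compared, 5 with the replicate block, and 0 to 2 when 1 array was left out. The 2 called lower numbered 3 each after quantile normalization, after median centring and with the stricter filter, 1 without a filter, and 0 to 2 when 1 array was left out. With the replicate block 13 members were called higher and 1 lower under oxygen, and gst-7, gst-12 and gstk-2 were added to the calls above control with RNAi (RNAi arrays share only the number). The cause of these shifts was not tested. The fits within a set held fewer arrays, and those under another filter held other numbers of probe sets. Of the 14 single calls, 0 reversed in any alternative; over the settings that kept all arrays or took 1 set or 1 pair of groups, 101 values stayed called and 34 did not, and over the leave-one-out fits 102 and 52. Single arrays left 1 call against oxygen, gst-10 without control 3 or gst-14 without RNAi array 2.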

Other observations

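A probe set annotated to gst-10 together with another gene was not a member and is given here as a value. Its signals were 428.7, 955.5 and 1001 in the RNAi arrays, 2302, 3110, 2426 and 2199 in oxygen and 710.2, 812.8, 1185 and 795.2 in control. It was called higher in oxygen than in control (log2 1.53 ± 0.30, limma adjusted p = 0.0201) and was not called lower with RNAi than in oxygen (−1.74 ± 0.33, adjusted p = 0.0827, or 0.0682 in the fit with the set as a block).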
